A study of Mus musculus with 6 samples.

Results

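The expression of 8 genes of astrocyte glutamate and glutamine handling was examined in sorted mouse cortical cells that the label calls astrocyte. They carried a Gq-coupled designer receptor for chronic activation. The genes were taken by symbol from a table of 24421 genes, and all 8 were present. They are Slc1a2, Slc1a3 and Slc1a4, which encode transporters of the plasma membrane, Glul and Slc38a3, which encode glutamine synthetase and a glutamine transporter, Glud1 and Slc25a18, which act on glutamate in mitochondria, and Grm3, which encodes a glutamate receptor. The 3 CNO libraries came from CD51-Flp mice that carried AAV-GFAP-FSF-hM3D-mCherry and received clozapine-N-oxide (CNO) from postnatal day 7 to day 21, 2 times per day. The 3 saline libraries came from mice of the same transgene and vector that received saline on the same schedule. In both groups mCherry-positive cells of the cortex were sorted on day 21, and the label gives astrocyte as their cell type. Flp is expressed from the CD51 (integrin alpha V) driver, the vector carries a GFAP promoter and hM3D is the receptor that CNO activates, so the design selects cells that used both the driver and the promoter. All animals carried the receptor, so an action of CNO on its own and one through hM3D cannot be told apart. The labels name neither sex nor strain, and they do not say whether a library is 1 animal or a pool.

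Glutamate released at synapses is cleared mainly by astrocytes, through sodium-coupled transporters of the Slc1 family. Inside the astrocyte, glutamine synthetase joins glutamate with ammonia to make glutamine, which leaves the cell and is taken up by neurons as a precursor of glutamate and GABA. The rest of the glutamate can enter mitochondria and be oxidized. The Gi-coupled receptor encoded by Grm3 senses glutamate outside the cell.

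Recovered library totals ran from 3908076 to 19224186 reads in the CNO libraries, with CNO 1 the smallest. In the saline libraries they ran from 12010901 to 19052161 reads. Normalized counts summed to between 14223760 and 16591950 in CNO libraries, and between 9588485 and 9857830 in saline libraries. Reads were found for 8618 genes in CNO 1, 12820 in CNO 2 and 10883 in CNO 3, and for 14141 to 14491 genes in the saline libraries. All 16 astrocyte markers had reads in every library and together took 2.43%, 1.26% and 0.404% of reads in CNO 1, 2 and 3, and 1.81%, 1.18% and 1.05% in saline 3, 4 and 5. The 12 oligodendrocyte markers took 11.1%, 24.5% and 18.8% of reads in CNO 1, 2 and 3, against 5.33% to 7.87% among saline libraries, and 2 of them, Mag and Aspa, were at 0 reads in CNO 1. The 10 microglia and macrophage markers took 0.568% to 1.25% in CNO and 1.07% to 1.34% in saline. In such bulk samples fewer astrocytes and less RNA per astrocyte cannot be told apart. Xist, the transcript of the inactive X chromosome, had 25.4, 21466 and 35033 normalized counts in CNO 1, 2 and 3, while saline 3, 4 and 5 had 216, 35117 and 885. Ddx3y is a transcript of the Y chromosome. It had 2417, 6.66 and 1.94 normalized counts in CNO 1, 2 and 3, and 1452, 213 and 1955 in saline 3, 4 and 5. Saline 4 had the most Xist of the libraries and still 213 counts of Ddx3y. The libraries thus differed in both sex-linked transcripts within each group, and the part of sex in the results was not tested.

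The sequences upstream of 3 members, Slc1a2, Slc1a4 and Grm3, are shown. Slc1a2 was the most abundant member, and Slc1a4 was nearly absent from 1 library. Relative to the median of astrocyte markers, Grm3 was below saline in every CNO library. The same was true of Slc25a18 and of 12.1% of all genes tested. RefSeq (build GRCm38.p6) held a promoter entry for 7 of the 8 genes. Each line gives the 250 bases before the annotated start, 5′ to 3′ on the strand of the gene, and capitals mark every match, on either strand, to a GC box (GGGCGG) or a CCAAT box (CCAAT). The first lies on the plus strand at chr2:102706188-102706437, the second on the minus strand at chr11:20332714-20332963, and the third on the minus strand at chr5:9725353-9725602.
Slc1a2: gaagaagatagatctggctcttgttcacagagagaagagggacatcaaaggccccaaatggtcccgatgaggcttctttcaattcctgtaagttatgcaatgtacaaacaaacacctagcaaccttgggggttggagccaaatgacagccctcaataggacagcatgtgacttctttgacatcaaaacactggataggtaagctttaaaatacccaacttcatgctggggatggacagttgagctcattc
Slc1a4: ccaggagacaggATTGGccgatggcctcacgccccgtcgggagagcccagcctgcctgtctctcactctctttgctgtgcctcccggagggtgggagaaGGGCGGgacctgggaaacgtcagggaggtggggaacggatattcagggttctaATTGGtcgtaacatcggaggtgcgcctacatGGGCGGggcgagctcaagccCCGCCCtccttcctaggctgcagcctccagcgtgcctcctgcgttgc
Grm3: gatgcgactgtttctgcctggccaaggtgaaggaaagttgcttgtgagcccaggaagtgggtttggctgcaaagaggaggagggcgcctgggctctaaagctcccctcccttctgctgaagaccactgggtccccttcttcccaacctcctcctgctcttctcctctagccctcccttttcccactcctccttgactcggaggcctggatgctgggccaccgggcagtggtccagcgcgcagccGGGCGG
The Slc1a2 window held no match to the 6 motifs searched, which also included TATAAA, TGACGTCA, TTCNNNGAA and the palindromic nuclear factor I motif, and it lies inside the gene span that GENCODE gives. Among the windows not shown, that of Glul held 1 GC box and 2 CCAAT boxes, and that of Glud1 held 3 GC boxes. The Slc1a4 window held 3 GC boxes and 2 CCAAT boxes, and the Grm3 window 1 GC box, and no base lay in more than 1 match. GC boxes were present in 32.7% and CCAAT boxes in 33.9% of 32841 windows of the same length. G and C made up 44.8% of the Slc1a2 window, 64.8% of the Slc1a4 window and 62.4% of the Grm3 window, against a median of 52.4% over all windows. No site in these windows was measured here, and a match is a string of letters only.

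Slc1a2 encodes the main glutamate transporter of astrocytes and lies at chr2:102658659-102790784 (GRCm38, GENCODE release M21, 20 merged exons). It had 292343, 221749 and 114914 normalized counts in CNO 1, 2 and 3, and 162044, 110016 and 132513 in saline 3, 4 and 5. CNO 1 and CNO 2 stood above every saline library, while CNO 3 stood within their range, so the groups overlapped. The means were 209669 ± 89329 in CNO and 134858 ± 26093 in saline (SD, n = 3 each), a log2 fold change of 0.55 ± 0.31 (SE, limma adjusted p = 0.572).

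Slc1a3, at chr15:8634124-8710764, encodes the second transporter that astrocytes use to clear glutamate. It had 60600, 34064 and 14956 normalized counts in CNO 1, 2 and 3, and 26669, 17796 and 18721 in saline 3, 4 and 5. CNO 1 and CNO 2 lay above and CNO 3 below every saline library. Its log2 fold change was 0.60 ± 0.44 (limma adjusted p = 0.645).

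Slc1a4, at chr11:20302180-20332713, belongs to the same family but exchanges serine, alanine and other neutral amino acids. It had 3034, 593 and 0.970 normalized counts in CNO 1, 2 and 3, and 1109, 744 and 511 in saline 3, 4 and 5. The value in CNO 3 is a single read of 17102657, with an exact 95% Poisson interval of 0.0253 to 5.57 reads, while the other 5 libraries held 718 to 1957 reads. The interval covers counting error only, and the cause of the low value in CNO 3 was not tested. The means were 1210 ± 1608 in CNO and 788 ± 301 in saline. The log2 fold change of -2.30 ± 2.10 (limma adjusted p = 0.689) has the opposite sign to the ratio of means, 1.53, and without CNO replicate 3 it was 0.84.

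**Figure D1:**
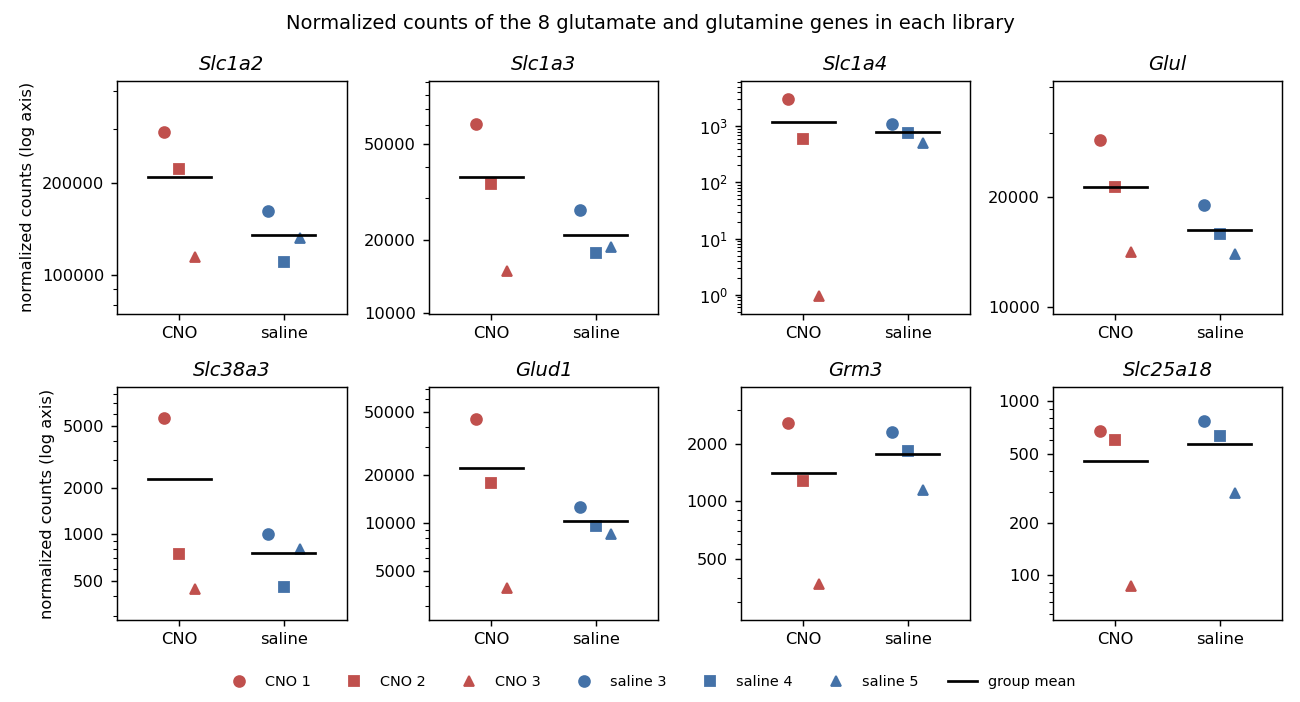
Normalized counts (log axis) of the 8 genes in each CNO library (red) and each saline library (blue), with the group mean as a black line. CNO 1 is the highest and CNO 3 the lowest CNO library for every gene, and the single read of Slc1a4 in CNO 3 stands far below all other values.

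Glul, at chr1:153899944-153909723, encodes glutamine synthetase, the enzyme that turns glutamate into glutamine. It had 28584, 21247 and 14122 normalized counts in CNO 1, 2 and 3, and 19078, 15838 and 13942 in saline 3, 4 and 5. The CNO libraries varied by a factor of 2.02 and the saline libraries by 1.37, the narrowest range among the 8 genes in each group. Its log2 fold change was 0.34 ± 0.33 (limma adjusted p = 0.701). Glul shares 116 exon bases (3.49% of its exons) with Teddm2 on the opposite strand, and strand handling is not given in the sources used here. The same limit touches 189 exon bases of Slc1a2 (1.44%), shared with the antisense gene Gm13872, and 32 of Slc25a18 (1.67%), shared with Atp6v1e1.

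Slc38a3, at chr9:107650634-107669530, encodes a transporter through which astrocytes release glutamine. It had 5582, 751 and 447 normalized counts in CNO 1, 2 and 3, and 1006, 456 and 806 in saline 3, 4 and 5. Only CNO 1 stood above the saline libraries, while CNO 2 lay within and CNO 3 just below their range. The log2 fold change of 0.78 ± 0.91 (limma adjusted p = 0.749) became -0.31 without CNO replicate 1.

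Glud1, at chr14:34310727-34345265, encodes glutamate dehydrogenase, which feeds the carbon of glutamate into the tricarboxylic acid cycle. It had 45209, 17886 and 3900 normalized counts in CNO 1, 2 and 3, and 12677, 9629 and 8563 in saline 3, 4 and 5. The CNO values spread 11.6-fold, from below to above all saline values, and the saline values 1.48-fold. Its log2 fold change of 0.53 ± 0.68 (limma adjusted p = 0.769) became -0.28 without CNO replicate 1.

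Slc25a18, at chr6:120773578-120794336, encodes a carrier that brings glutamate into mitochondria. It had 672, 601 and 86.3 normalized counts in CNO 1, 2 and 3, and 773, 633 and 299 in saline 3, 4 and 5. CNO 3 was the low library, at 89 reads, and CNO 1 and CNO 2 lay within the saline range. The log2 fold change of -0.69 ± 1.01 (limma adjusted p = 0.794) became 0.27 without CNO replicate 3.

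Grm3, at chr5:9485541-9725170, encodes a Gi-coupled metabotropic glutamate receptor of astrocytes. It had 2552, 1276 and 372 normalized counts in CNO 1, 2 and 3, and 2308, 1826 and 1147 in saline 3, 4 and 5. CNO 1 lay above and CNO 3 below all saline libraries. The log2 fold change of -0.66 ± 0.74 (limma adjusted p = 0.738) became 0.094 without CNO replicate 3.

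None of the 8 genes passed the threshold in the comparison of CNO with saline, which asks whether receptor activation went with a difference in their transcripts. The test was limma on log2(normalized count + 1) across 13028 genes with Benjamini-Hochberg adjustment, in which 0.0154% of genes were called at an adjusted p under 0.05. At an unadjusted p under 0.05 the count was also 0 of 8, beside 9.53% of all genes tested. On recovered reads 0 of 8 were called by edgeR, DESeq2 and limma-voom, which called 0%, 2.29% and 0.123% of all genes with an adjusted p. At these shares a count of 0 among 8 genes is near the background. The 95% intervals of the log2 fold change allow -0.12 to 1.22 for Slc1a2, -0.36 to 1.56 for Slc1a3 and -0.38 to 1.06 for Glul, and a doubling in CNO lies within each of them. Intervals were wider for the others, up to -6.90 to 2.30 for Slc1a4. Fold changes were above 0 for 5 of the 8 genes, against 31.7% of all genes tested and 68.7% of the 2239 with a mean of 1000 or more, and 4 of the 5 (Slc1a2, Slc1a3, Glul and Glud1) were below 0 under quantile normalization and under scaling to library totals. Their median was 0.44, against -0.89 over all genes tested and 0.35 over those abundant genes. None of the 8 had groups without overlap, which 17.1% of all genes tested had.

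**Figure D2:**
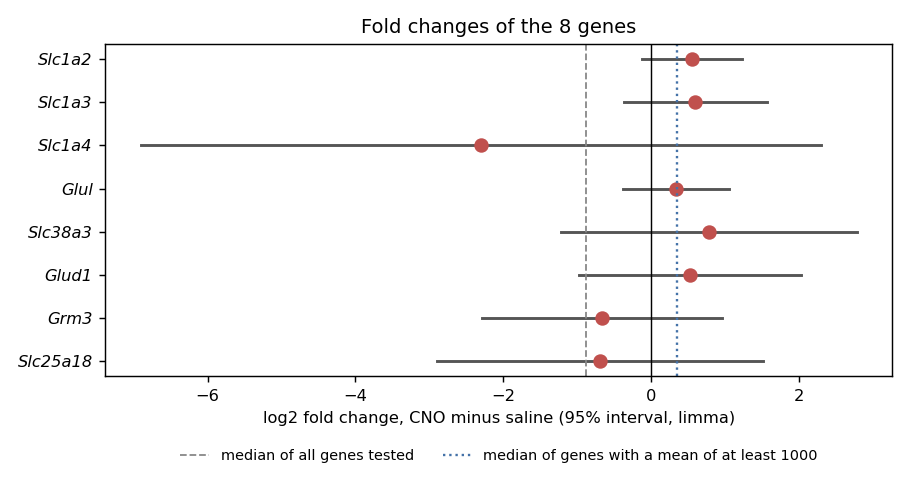
Log2 fold change of each gene, CNO minus saline, with its 95% interval from limma, and the median over all genes tested (dashed) and over genes with a mean of at least 1000 (dotted). Every interval crosses 0, the narrowest being that of Slc1a2, from -0.12 to 1.22.

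Within the CNO group the 8 genes varied together. All 8 were highest in CNO 1, intermediate in CNO 2 and lowest in CNO 3, an order found in 15.8% of all genes tested and in 22.1% of the abundant genes just named. Within the saline group all 8 were highest in saline 3, as were 32.7% of all genes tested and 33.6% of those with a mean of at least 1000. Both features together were shown by 842 genes tested (6.46%) and by 257 of those with a mean of at least 1000 (11.5%). They were also shown by 10 of the 16 astrocyte markers (62.5%). CNO 1 exceeded every saline library for 7 of the 8 genes, all but Slc25a18, against 26.1% of all genes tested and 53.0% of genes with a mean of at least 1000. CNO 3 was below every saline library for 6 of the 8, all but Slc1a2 and Glul, against 43.7% of all genes tested and 20.8% of such abundant genes. Slc1a4 and Slc25a18, which are among the 6, have means under 1000. This pattern was picked out after the values were seen and is a description of these 6 libraries.

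The astrocyte markers, none of which is a member, largely followed it. Of 16 markers, 12 had the same order over the CNO libraries, 13 were highest in saline 3 and 11 were below every saline library in CNO 3. Aqp4, the water channel of astrocyte endfeet, had 27972, 12849 and 6750 normalized counts in CNO 1, 2 and 3, and 12707, 7819 and 10247 in saline 3, 4 and 5. Of the 12 oligodendrocyte markers, 0 had that order over the CNO libraries, and 0 were highest in saline 3. None of the 10 microglia and macrophage markers had that CNO order either. The share of reads on the 8 genes together was 2.66%, 2.10% and 0.897% in CNO 1, 2 and 3, and 2.29%, 1.63% and 1.84% in saline 3, 4 and 5, with means of 1.88% ± 0.899 and 1.92% ± 0.336. The part of astrocyte content, depth or RNA quality in these differences was not tested.

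**Figure D3:**
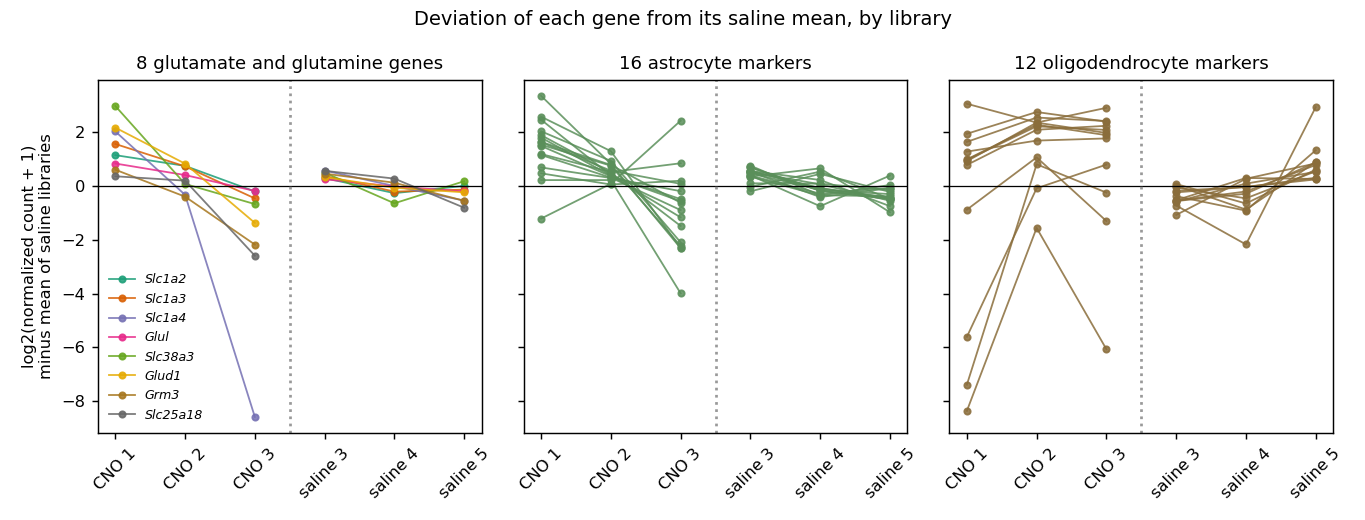
Log2(normalized count + 1) of each gene minus its mean over the saline libraries, for the 8 genes, the 16 astrocyte markers and the 12 oligodendrocyte markers, with a line joining the values of a gene within a group. All 8 genes and 12 of 16 astrocyte markers descend over CNO 1, 2 and 3, while 0 of 12 oligodendrocyte markers do.

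The median standard deviation of log2 values was 1.53 over the 8 genes in CNO and 0.42 in saline. For genes with a mean of at least 1000 these medians were 0.90 in CNO and 0.41 in saline, and over all genes tested 2.15 and 0.81. Among the 8 genes the standard deviation in CNO was lowest for Glul (0.51) and Slc1a2 (0.69) and highest for Slc1a4 (5.56). In saline it ran from 0.23 for Glul to 0.72 for Slc25a18.

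To compare the genes with the astrocyte content of each library, the log2 level of each was expressed relative to the median log2 level of the 16 markers in the same library. On this scale Grm3 was -2.50, -1.71 and -1.78 in CNO 1, 2 and 3, while saline 3, 4 and 5 gave -0.91, -1.0 and -0.80. Every CNO value of Grm3 lay below every saline value, a difference in means of -1.09 on the log2 scale (exact permutation p = 0.1, 2-sided, the smallest that 3 against 3 libraries allow). Slc25a18 was -4.42, -2.80 and -3.87 in CNO 1, 2 and 3, while saline 3, 4 and 5 gave -2.49, -2.53 and -2.74. Its difference was -1.11 without overlap (exact permutation p = 0.1). After Benjamini-Hochberg adjustment over the 8 genes, the permutation p-values of Grm3 and Slc25a18 became 0.4. These were the 2 of 8 genes without overlap, both lower in CNO, while 12.1% of all genes tested and 7.40% of those with a mean of at least 100 were lower without overlap by the same measure. Higher values without overlap were found for 0 of the 8 and for 0.652% of all genes tested. With the mean of the markers in place of their median, the groups still did not overlap for Grm3 and did overlap for Slc25a18, so that 1 of 8 genes was lower without overlap, near the 13.3% of all genes tested.

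The other 6 genes overlapped between groups relative to the markers. The differences in means were 0.12 for Slc1a2, 0.17 for Slc1a3, -0.086 for Glul, 0.35 for Slc38a3 and 0.10 for Glud1, all smaller than the standard deviation of the gene within the CNO group. Slc1a4 differed by -2.73, with a standard deviation of 3.94 in CNO that rests on the single read of CNO 3. Exact permutation p-values of these 6 ran from 0.2 to 1.

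**Figure D4:**
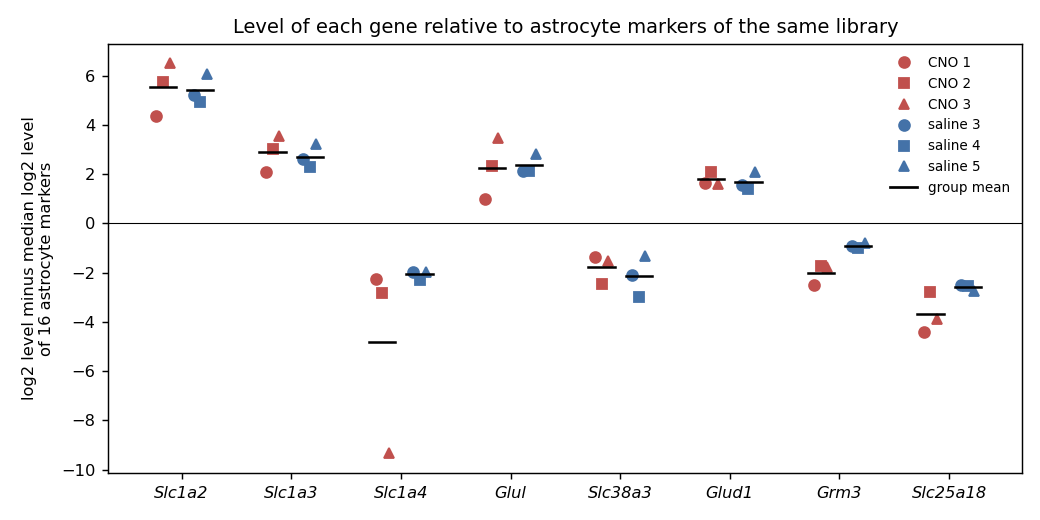
Log2 level of each gene minus the median log2 level of 16 astrocyte markers in the same library, for CNO (red) and saline (blue) libraries, with group means in black. The CNO values of Grm3 and Slc25a18 lie below their saline values, and the other 6 genes overlap.

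Ratios between members do not depend on the scaling of a library. The log2 ratio of Slc1a2 to Slc1a3 was 2.27, 2.70 and 2.94 in CNO 1, 2 and 3, and 2.60, 2.63 and 2.82 in saline 3, 4 and 5, close to one another in both groups. The log2 ratio of Grm3 to Slc1a2 was -6.84, -7.44 and -8.27 in CNO, and -6.13, -5.91 and -6.85 in saline, with CNO 1 just above saline 5. The log2 ratio of Glud1 to Glul was 0.66, -0.25 and -1.86 in CNO, and -0.59, -0.72 and -0.70 in saline, so that the 3 saline libraries nearly coincided while the CNO libraries spanned them. The ratios of Glul to Slc1a2 and of Slc38a3 to Glul also overlapped. Over the 5 ratios the exact permutation p-values ran from 0.2 to 0.9 (adjusted p from 0.75 to 0.9).

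Per kilobase of exon, Slc1a2 was the most abundant of the 8 genes, at 15965 ± 6802 normalized counts per kilobase in CNO and 10269 ± 1987 in saline. It ranked 11 in CNO and 13 in saline among 12524 tested genes with an annotated exon length. By its mean Glul followed, at 6415 ± 2176 in CNO and 4901 ± 782 in saline. Glud1 averaged 5304 ± 4991 in CNO and 2444 ± 507 in saline, and Slc1a3 averaged 4280 ± 2685 in CNO and 2467 ± 571 in saline. The ranges of Glul, Glud1 and Slc1a3 overlapped in CNO, where Glud1 was above Glul in CNO 1, at 10739 against 8602 per kilobase. In saline Glul was above both without overlap, and the ranges of Glud1 and Slc1a3 overlapped. Grm3 averaged 459 ± 359 in CNO and 577 ± 191 in saline, and in both groups every library had it below all of the 4 genes above. Slc38a3, Slc1a4 and Slc25a18 averaged 237 to 428 per kilobase in CNO and 143 to 297 in saline, and their ranges overlapped within each group.

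The genes whose log2 values tracked Slc1a2 most closely over the 6 libraries, by root mean square difference of values centred on each gene's mean, were Serinc1 (0.091), Gapdh (0.14), Fam171b (0.16), Zfp644 (0.17) and Anp32a (0.18). Gapdh, a glycolytic enzyme of all cells, had 10083, 8942 and 4817 normalized counts in CNO 1, 2 and 3, and 6747, 5194 and 5849 in saline 3, 4 and 5. Among the members, Glul (0.20) and Slc1a3 (0.21) were nearest to Slc1a2, with 9 and 11 genes nearer, while Slc38a3 (0.83) was farthest of the 5 members with a mean of at least 1000. Likeness was computed over those of the 2239 genes with that mean that are not predicted gene models. The values share library, depth and cell mixture.

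A wider set of 49 genes of glutamate and glutamine transport, metabolism and signalling was read from the same fit, of which 42 were tested. None passed the threshold in limma, edgeR, DESeq2 or limma-voom, which called 0.0154%, 0%, 2.29% and 0.123% of all genes, and 5 had an unadjusted p under 0.05 in limma, beside 9.53% of all genes tested. Of the other uptake and exchange genes, Slc7a11, the cystine-glutamate exchanger, had 13248, 3059 and 726 normalized counts in CNO 1, 2 and 3, and 4377, 1620 and 3073 in saline 3, 4 and 5. Its partner Slc3a2 had a log2 fold change of 0.26 ± 0.74. Slc1a1, a transporter mainly of neurons, had 0, 115 and 798 normalized counts in CNO 1, 2 and 3, and 82.5 to 172 in saline. Its log2 fold change of -1.54 ± 2.27 has the opposite sign to its ratio of means, 2.22. Slc1a5, a glutamine exchanger, had 0, 0 and 269 in CNO 1, 2 and 3, and 9.56 to 80.8 in saline. Its log2 fold change of -1.90 ± 2.49 also has the opposite sign to its ratio of means, 2.54. Slc1a6 was at 0 reads in every library of both groups.

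Among 6 genes of glutamine and neutral amino acid transport, the median log2 fold change was -1.98, and 5 of 6 lay below 0. Over all genes tested the median was -0.89, and only 31.7% lay above 0. Slc7a5, a large neutral amino acid transporter best known at brain endothelium, had 63.4, 25.9 and 0.970 normalized counts in CNO 1, 2 and 3, and 468, 215 and 340 in saline 3, 4 and 5. Its groups did not overlap, with a log2 fold change of -4.43 ± 1.78 that did not pass (limma adjusted p = 0.496). Lower values without overlap were found for 1 of these 6 genes and for 12.5% of all genes tested. Of 9 tested endothelial and mural markers, 2 had log2 fold changes above 0 and 7 below, 0 passed the threshold, and the groups overlapped for each. Slc38a2, a sodium-coupled glutamine transporter, had -1.23 ± 0.86 and Slc38a7 had -3.54 ± 2.14. Slc38a5 was at 0 reads in every CNO library and had 0, 3.20 and 68.4 normalized counts in saline 3, 4 and 5. Its presence in saline rests on saline 5, and no fold is given.

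Of 14 tested genes of glutamate and glutamine metabolism, 5 had log2 fold changes above 0 and 9 below, with a median of -0.61. Beside them, 31.7% of all genes tested were above 0, with a median of -0.89. Oat, ornithine aminotransferase, had 5523, 1641 and 5288 normalized counts in CNO 1, 2 and 3, and 2752, 1470 and 801 in saline 3, 4 and 5, with overlap between groups and a log2 fold change of 1.29 ± 0.64. Got1, the cytosolic aspartate aminotransferase, had -3.35 ± 2.08 with 0 reads in CNO 1, Aldh18a1 had -3.59 ± 2.03, and Gclc, which starts glutathione synthesis, had -2.26 ± 1.495. Gls2 was at 0 reads in every CNO library and averaged 3.47 in saline, under the floor of 5.94 normalized counts that 3 reads per CNO library set, so no fold is given. The floor covers counting error only.

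Of 4 mitochondrial carriers, Slc25a13, an aspartate-glutamate carrier, was at 0 reads in all CNO libraries and at 42.5, 17.6 and 31.7 normalized counts in saline 3, 4 and 5. Its saline mean of 30.6 was 5.16-fold above the floor of 5.94, which covers counting error only. The gene did not pass the threshold (limma adjusted p = 0.488). It was the 1 of 4 carriers that was lower in CNO without overlap, beside 12.5% of all genes tested. The other aspartate-glutamate carrier, Slc25a12, had 12.7, 906 and 153 in CNO 1, 2 and 3, and 294, 272 and 149 in saline 3, 4 and 5. Slc25a22, the second glutamate carrier beside Slc25a18, had 765, 2.96 and 0 in CNO 1, 2 and 3, while saline 3, 4 and 5 had 1.13, 5.60 and 5.54. Slc25a11, which carries alpha-ketoglutarate, had a log2 fold change of 0.79 ± 0.81.

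Of 13 tested glutamate receptor genes, 7 had log2 fold changes above 0 and 6 below, with a median of 0.11. Gria1, an AMPA receptor subunit, had 473, 1468 and 2344 normalized counts in CNO 1, 2 and 3, and 275, 232 and 181 in saline 3, 4 and 5, without overlap and with a log2 fold change of 2.37 ± 0.84. Grin2b, an NMDA receptor subunit, had 473, 137 and 1037 in CNO and 115, 34.4 and 88.1 in saline, also without overlap, at 2.51 ± 1.26. Gria3 (-1.83 ± 0.83) and Grin2a (-4.78 ± 1.70) lay below saline without overlap, the second with 0.970 or fewer normalized counts in each CNO library. None of the 4 passed in limma (adjusted p from 0.488 to 0.550), and 4.57% of all genes tested were higher and 12.5% lower without overlap. Grm2 and Grm4 were at 0 reads in every CNO library, and their saline means were under the floor, so no fold is given. The vesicular transporter Slc17a7, a marker of cortical excitatory neurons, had 0 to 47.4 normalized counts in CNO and 24.0 to 63.5 in saline, and Slc17a8 was at 0 reads in all 6 libraries.

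**Figure D5:**
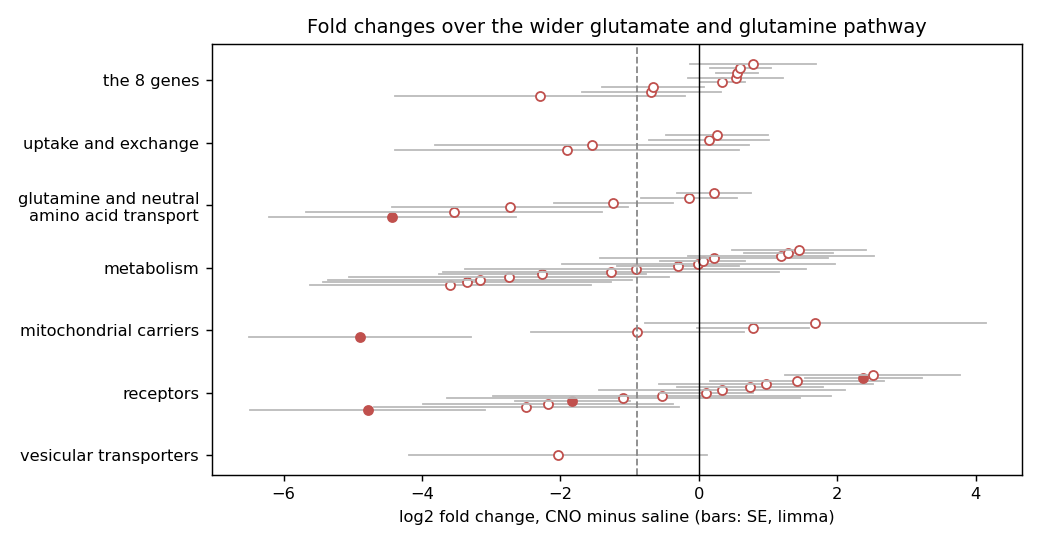
Log2 fold changes, CNO minus saline, of the 8 genes and of the 42 tested genes of 6 pathway lists, with standard errors from limma. Filled points mark the 5 genes with an unadjusted p under 0.05, of which none passed after adjustment, and the dashed line marks the median of all genes tested, -0.89.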

How the data were processed

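RNA of sorted mCherry-positive cells was sequenced in 6 libraries, 3 per group, from 10 ng of total RNA each, per the labels' protocols. The submitters' processing notes list the build mm10 and, with no role or order, DESeq2 1.20.0, STAR 2.5.0a, Trimmomatic 0.4, MultiQC 0.9 and FastQC 0.10.1. Strand handling, the annotation and the read counter were not given in the sources used here. The deposited values are a signal, normalized gene counts in which each library has its own scale. In every one 100% of values were whole multiples of a single step, within 1e-06 reads, and dividing by that step recovered the reads. The step was 4.23 in CNO 1, the shallowest library, against 0.503 to 0.970 in the others.

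The test was limma 3.58.1 in R 4.3.3 after adding 1 to each normalized count and taking log2, over 13028 genes with a mean of at least 10, with a variance trend, 2-sided tests and Benjamini-Hochberg adjustment at 0.05. The script was tested on simulated data with equal dispersion in both groups, so that test does not cover the unequal spread seen here. Values relative to 16 astrocyte markers and 5 ratios used exact permutation over 20 splits (scipy 1.17.1). edgeR 4.0.16, DESeq2 1.42.0 and limma-voom used the recovered reads as alternatives. Replicates carry no stated origin, so p-values measure the spread between these libraries. Members and gene lists were chosen with earlier results of these data known. Aqp4, Mag, Aspa, Xist and Ddx3y were chosen after their values were seen. From each pathway list, up to 4 genes with the smallest p, and genes at 0 reads in a whole group, were named. A gene that this rule names is not reported here. Figures used matplotlib 3.10.9.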

Additional observations from a re-analysis of the deposited data

How the results depend on the processing

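No paired analysis was made because the labels give no pairing of CNO and saline libraries. The 2 genes past the threshold over all genes became 0 with a mean of at least 50, quantile normalization, scaling to library totals, no variance trend, edgeR, or any 1 library left out (0 to 0), 16 with limma-voom and 249 with DESeq2. Of the 8 genes 0 passed under all 17 alternatives, although 3 had an unadjusted p under 0.05 without CNO replicate 3 (beside 1612 of 13028 genes) and 1 under quantile normalization (beside 995).

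Scaling turned signs. Under quantile normalization the log2 fold changes were -0.82 for Slc1a2, -0.20 for Slc1a3, -0.35 for Glul and -0.30 for Glud1, and under scaling to library totals -0.15, -0.10, -0.36 and -0.17. The median of all genes moved from -0.89 to -0.08 and -1.52 under these. Slc1a4 was 0.39 in edgeR and 0.62 in DESeq2. The cause was not tested.

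Leaving out 1 library each gave log2 fold changes of 0.26 to 0.94 (Slc1a2), 0.12 to 1.13 (Slc1a3), -4.46 to 0.84 (Slc1a4), 0.10 to 0.61 (Glul), -0.31 to 1.51 (Slc38a3), -0.28 to 1.49 (Glud1), -1.29 to 0.094 (Grm3) and -1.20 to 0.27 (Slc25a18), with every turned sign coming from the omission of CNO replicate 1 or 3. The share of reads differed by -0.0379 percentage points, by 0.239 outside the oligodendrocyte markers, and by -0.424 to 0.455 without 1 library. Relative to astrocyte markers the differences ran from -0.36 to 0.71 (Slc1a2), -0.16 to 0.58 (Slc1a3), -4.00 to -0.46 (Slc1a4), -0.69 to 0.55 (Glul), -0.077 to 0.77 (Slc38a3), -0.052 to 0.31 (Glud1), -1.23 to -0.84 (Grm3) and -1.56 to -0.75 (Slc25a18), and Glul turned to 0.0117 with the marker mean. Ratios ran from -0.20 to 0.14 (Slc1a2 to Slc1a3), -0.41 to 0.90 (Slc38a3 to Glul) and -0.38 to 0.88 (Glud1 to Glul), and 2 other ratios kept their sign. These exact tests cannot pass 0.05 with 3 libraries a group.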
